A study of Mus musculus with 20 samples.

Results

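The Ly6 and uPAR family is a group of small cell surface and secreted proteins that share the LU domain, a compact disulfide-rich fold, and most members are held on the outer membrane by a glycosylphosphatidylinositol (GPI) anchor. Ly6a, also called Sca-1, is a classic marker of blood stem and progenitor cells, is also made by stromal and endothelial cells, and is known as a marker of the regenerating, fetal-like state that the colonic epithelium enters after injury. Plaur encodes uPAR, the surface receptor for urokinase, a protease that starts plasminogen activation. Lypd8 is a heavily glycosylated protein of colonic enterocytes that binds flagellated bacteria and keeps them away from the mucosa.

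Described here are 8 members of the family, Ly6a, Ly6c1, Ly6d, Ly6e, Lypd8, Lypd3, Plaur and Cd59a, in mouse colonic organoids (colonoids) with and without TNFR2, the TNF receptor encoded by Tnfrsf1b. The members were taken by gene symbol from a table of transcript abundances, after repeated lines were dropped, which gave 42 of 113193 transcripts. Their values were summed per symbol into 8 of 35240 genes, and each of the 8 had a mean of at least 1 and was tested. The question put to the data was how the abundance of these members differed between genotypes and how it moved as the cultures matured.

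Colonoids were grown from colonic crypts in Matrigel under IntestiCult medium, passaged repeatedly and collected on days 1, 2, 3, 5 and 7 after the last passage. The wildtype (WT) cultures came from C57BL/6 mice and the Tnfr2-/- cultures from mice with a whole-body deletion (strain B6.129S2-Tnfrsf1b tm1Mwm/J), with 2 mice per genotype and 1 library per mouse and day. The 20 libraries therefore formed 10 groups of 2, and libraries with the same mouse number within a genotype were taken as repeated samples of 1 animal. The study's methods give an age of 8 weeks for the donors of its colonic cultures, and the age is not stated separately for these libraries. The deletion was present in every cell of the knockout mice. The study describes Pdgfra+ fibroblasts beside the epithelium in colonoid cultures that it profiled separately by single-cell sequencing on day 7 after passage.

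Abundances are in TPM, a share of the library's transcripts, after a scaling of each library, called normalised TPM below. They are scaled to transcript length, so levels of different genes can be compared. They sum to between 900655 and 1111080 per library, and the number of reads behind a value is not known. Tnfrsf1b, the targeted gene, lay between 11.1 and 21.9 in WT and between 2.71 and 11.5 in Tnfr2-/- libraries, with both knockout libraries below both WT libraries on each day (log2 difference -1.35, SE 0.17, adjusted p = 9.723e-05). Its difference was -1.72 on days 1 to 3 (adjusted p = 0.000116) and -0.79 on days 5 and 7 (adjusted p = 0.03234), and between these periods the gene rose by 1.016 in Tnfr2-/- (adjusted p = 0.001909). Sums of 8 epithelial markers lay between 11329 and 19618, sums of 10 fibroblast markers between 1242 and 8594, and sums of 7 endothelial markers between 0.425 and 4.42, with Emcn at 0 in all 20 libraries. Sums of 8 immune markers lay between 9.48 and 48.4 and were mostly Cd68, while Tyrobp was at 0 in all 20 libraries. The WT libraries of mouse 1 stood apart on the late days, with median correlations to the other libraries of 0.894 on day 5 and 0.902 on day 7, against 0.911 to 0.937 in the other 18 libraries. Several member results are also given without that mouse, but most marker and list results are not. A fit without 1 mouse no longer holds the spread between the mice of that genotype.

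Ly6a, Ly6c1, Ly6d and Ly6e lie in 1 cluster on mouse chromosome 15. In the GRCm38 build with GENCODE M21 annotation, Ly6a (ENSMUSG00000075602) spans chr15:74994877-74998031 on the minus strand and Ly6c1 spans chr15:75044018-75048830 on the minus strand. Ly6e spans chr15:74955051-74959905 on the plus strand and Ly6d spans chr15:74762056-74763620 on the minus strand. Lypd8 lies elsewhere at chr11:58379043-58390728, and Plaur at chr7:24462484-24475968 and Lypd3 at chr7:24636550-24641118 are both on the plus strand. Cd59a lies at chr2:104095801-104115354 on the plus strand.

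Ly6 genes of the cluster can share stretches of sequence, which bears on the Ly6a and Ly6c1 values. The first 90 coding bases of 5 of them are printed 5′ to 3′ from the start codon, read from the transcript sequences of the same annotation, with capitals where a base differs from Ly6a at the same position.
Ly6a: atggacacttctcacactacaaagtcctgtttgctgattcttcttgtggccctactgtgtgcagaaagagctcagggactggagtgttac
Ly6c1: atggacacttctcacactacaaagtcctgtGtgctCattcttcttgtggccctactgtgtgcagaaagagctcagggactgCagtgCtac
Ly6c2: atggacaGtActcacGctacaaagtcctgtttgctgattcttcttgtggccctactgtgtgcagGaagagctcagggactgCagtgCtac
Ly6g: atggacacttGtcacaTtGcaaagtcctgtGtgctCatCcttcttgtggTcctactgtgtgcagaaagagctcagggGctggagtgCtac
Ly6e: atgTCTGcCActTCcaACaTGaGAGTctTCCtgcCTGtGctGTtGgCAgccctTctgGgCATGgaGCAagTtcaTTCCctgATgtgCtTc
Over this stretch Ly6c1 differs from Ly6a at 4 positions, Ly6c2 at 6 and Ly6g at 9, whereas Ly6e differs at 46. Over the whole aligned coding sequence, identity with Ly6a was 83.7% for Ly6c1, 83.1% for Ly6g, 49.6% for Ly6e and 47.5% for Ly6d, and identity between Ly6c1 and Ly6c2 was 97.7%. Of the 31-base words in Ly6a transcripts, 31.9% also occur in another gene, and of those in Ly6c1 46.8% do. The share was 10.4% for Lypd3, 9.39% for Cd59a, 0.422% for Ly6e, 0.187% for Plaur and 0 for Ly6d and Lypd8. Of the 170 shared words of Cd59a, 149 also occur in Cd59b, which had a mean of 75.9 normalised TPM. Reads that match several genes were divided between them by the authors' estimation. In the transcripts compared, the longest shared run was 58 bases for Ly6a and Ly6c1 and 57 for Cd59a and Cd59b, shorter than the study's reads. A whole read from those transcripts would therefore also hold bases that differ. The run was 80 bases for Ly6a and Ly6i and 188 for Ly6c1 and Ly6c2. Ly6d, Ly6e, Lypd8 and Plaur could hardly exchange reads with other genes. Ly6c2 itself had a mean of 3.43 and Ly6i, the other close neighbour, of 0.985, and adding those genes to Ly6c1 and Ly6a changed no call (chosen after seeing the data).

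Ly6a was the most abundant member, with a mean of 2959 normalised TPM over the 20 libraries and rank 29 among all genes. Ly6e followed at 2194, Ly6c1 at 1166, Lypd8 at 850, Ly6d at 250 and Plaur at 95.1. Cd59a, an inhibitor of the complement membrane attack complex, averaged 1.90, and Lypd3, a protein of stratified squamous epithelium, 1.502. Ly6a lay above Ly6e in 17 of 20 libraries, Ly6e above Ly6c1 in 19 and Plaur above Cd59a in 20. Ly6c1 lay above Lypd8 in only 14 libraries and Lypd8 above Ly6d in 12, so these neighbours changed places between libraries. Cd59a and Lypd3 ranged from 0 to 5.43 and from 0 to 3.70, near the bottom of the scale, and their order was not fixed either, with Cd59a above in 12 libraries. The 8 members together held 85.0% to 97.1% of the summed abundance of all 41 family genes in the table, and Ly6a alone held 18.7% to 50.1%.

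**Figure D1:**
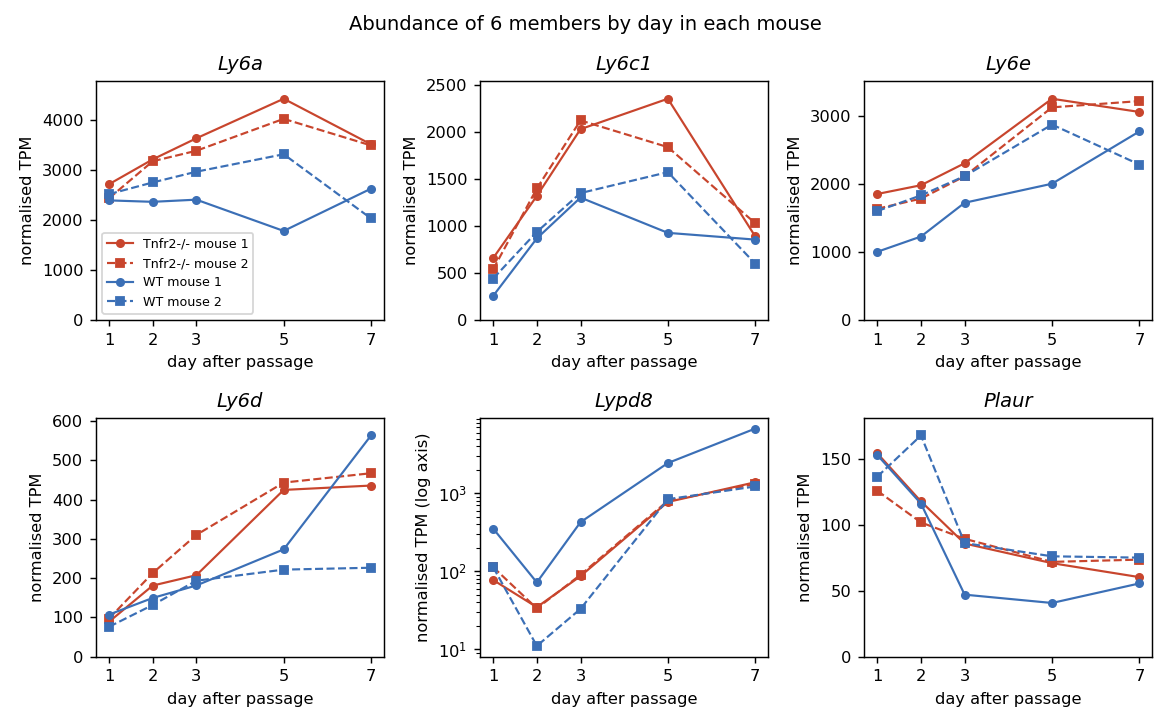
Abundance (normalised TPM, y axis; logarithmic for Lypd8) of 6 members on days 1 to 7 after passage (x axis). Each line is 1 mouse (WT blue, Tnfr2-/- red). Ly6c1 in both knockout mice lies above both WT mice on each day, Lypd8 in WT mouse 1 lies above the other mice on each day, and Plaur is lower on days 5 and 7 than on day 1 in each mouse.

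Over all days, 3 of the 8 members were called between genotypes, Ly6c1, Ly6a and Ly6e, and all were higher in Tnfr2-/- colonoids. A member was called when the Benjamini-Hochberg adjusted p of limma over 13539 genes was under 0.05, and 7.6% of all genes tested were called, with 4.51% of all genes tested called higher and 3.09% lower. The median log2 difference of the 8 members was 0.28, beside -0.03 for all genes tested. The Tnfr2-/- effect was an estimate over 20 libraries but only 4 mice. With 1 mean per mouse, 2 against 2, no member was called, and adjusted p was 0.2203 for Ly6c1, 0.3418 for Ly6a and 0.4658 for Ly6e. At an unadjusted p under 0.05, 4 members passed in the library fit, Ly6d being the fourth, beside 22.3% of genes. Sums of the 8 epithelial markers were 12725 to 19618 (median 17820) in Tnfr2-/- and 11329 to 19138 (median 15425) in WT. Over all days 2 of the 8 markers were called higher and 0 lower, beside 4.51% and 3.09% of genes. The part of epithelial content in the member differences was not tested.

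Ly6c1, a Ly6C antigen found on monocytes and some endothelial cells, had the lowest adjusted p of the 8 members. WT mouse 1 gave 257, 869, 1303, 928 and 856 normalised TPM on days 1, 2, 3, 5 and 7, and WT mouse 2 gave 442, 938, 1351, 1574 and 601. Tnfr2-/- mouse 1 gave 660, 1320, 2031, 2355 and 891, and Tnfr2-/- mouse 2 gave 540, 1400, 2124, 1840 and 1031. Both knockout libraries exceeded both WT libraries on 5 of 5 days, which held for 0.997% of all genes tested. The log2 difference over all days was 0.65 (SE 0.11, 95% CI 0.42 to 0.88, adjusted p = 0.001717), and it was 0.53 without WT mouse 1. Without Tnfr2-/- mouse 1 or mouse 2 it was 0.62 and 0.68 with adjusted p of 0.05599 and 0.07381, so the call needed both knockout mice. With day as a linear term the adjusted p was 0.2418. Sums of the 8 immune markers moved in the same direction, from 17.3 to 48.4 (median 26.5) in the knockouts and from 9.48 to 21.03 (median 12.9) in WT. Of the 8 only Cd68 and Csf1r were abundant enough to test, and both were called higher over all days, beside 4.51% of genes. Ptprc was at most 0.753 and Tyrobp was at 0 in all 20 libraries. The endothelial sums were 1.101 to 3.42 and 0.425 to 4.42. The part of these cells in the Ly6c1 difference was not tested.

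Ly6a itself overlapped between genotypes on day 1 and was separated on the other days. In WT mouse 1 Ly6a measured 2394, 2365, 2408, 1783 and 2629 on days 1, 2, 3, 5 and 7, and in WT mouse 2 it measured 2519, 2752, 2968, 3316 and 2032. In the knockouts it measured 2717, 3214, 3635, 4427 and 3514 in mouse 1 and 2436, 3176, 3386, 4024 and 3492 in mouse 2. Both knockout libraries exceeded both WT libraries on 4 of 5 days, and 3.63% of genes did so on at least 4. Both knockout mice peaked on day 5, whereas the WT mice diverged on that day, 1 at its lowest and the other at its highest value. The log2 difference over all days was 0.44 (SE 0.11, 95% CI 0.21 to 0.66, adjusted p = 0.01861). It was 0.32 without WT mouse 1 (adjusted p = 0.06075), 0.39 without Tnfr2-/- mouse 1 (adjusted p = 0.2101), 0.48 without Tnfr2-/- mouse 2 (adjusted p = 0.1596) and 0.39 without day 7 of both genotypes (adjusted p = 0.09118, chosen after seeing the data).

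On the late days, 5 and 7, Ly6a was the only member called, with a mean of 3864 ± 448 normalised TPM in the knockouts and 2440 ± 684 in WT (SD, n = 4 libraries from 2 mice each). The log2 difference was 0.70 (SE 0.16, adjusted p = 0.02045), and 6.45% of genes were called. Every knockout library exceeded every WT library for Ly6a and for Ly6e, which held for 5.35% of genes in that direction. Without WT mouse 1 the late difference of Ly6a was 0.57, in a fit that lacks the spread between the WT mice. The call was lost without WT mouse 1 on day 5 (0.47, adjusted p = 0.05743), without WT mouse 2 on day 7 (0.60, adjusted p = 0.06053) and without any 1 of the 4 late knockout libraries (adjusted p from 0.05633 to 0.07189). It was also lost without all days of Tnfr2-/- mouse 1 (0.66, adjusted p = 0.3514) or mouse 2 (0.73, adjusted p = 0.3256) and with mouse means (adjusted p = 0.2602). Fibroblast marker sums differed in the same direction on these days, 3728 to 8594 in Tnfr2-/- and 1242 to 4051 in WT, and all 10 of those markers were above 0 in each library. Late, 2 of the 10 were called higher, beside 3.8% of genes, with a median log2 difference of 0.84 beside -0.05 for all genes. On the early days the sums were 3148 to 4697 in Tnfr2-/- and 2092 to 4296 in WT. Across the 20 libraries the log2 abundance of Ly6a had a Pearson r of 0.53 with the fibroblast sum, against -0.04 for Ly6c1 and 0.20 for Ly6e, a description over libraries that share mice. In these bulk libraries, more cells of a type and more RNA per cell cannot be told apart, and the part of fibroblasts in the Ly6a difference was not tested. Sums of 8 colonocyte markers were 326 to 384 in late knockout and 330 to 1253 in late WT libraries, and Car4 was at 0 in 10 of the 20 libraries. The high WT sums were those of WT mouse 1, at 1253 and 1024 on days 5 and 7. WT mouse 2 gave 330 and 438, beside 326 and 384 in the knockouts on day 5 and 378 and 345 on day 7. Late, 2 of the 8 were called lower, beside 2.64% of genes (median log2 difference -1.36), and these values are not given without WT mouse 1. The r of the colonocyte sums with Ly6a over the 20 libraries was -0.52, and their part in the Ly6a difference was not tested either.

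**Figure D2:**
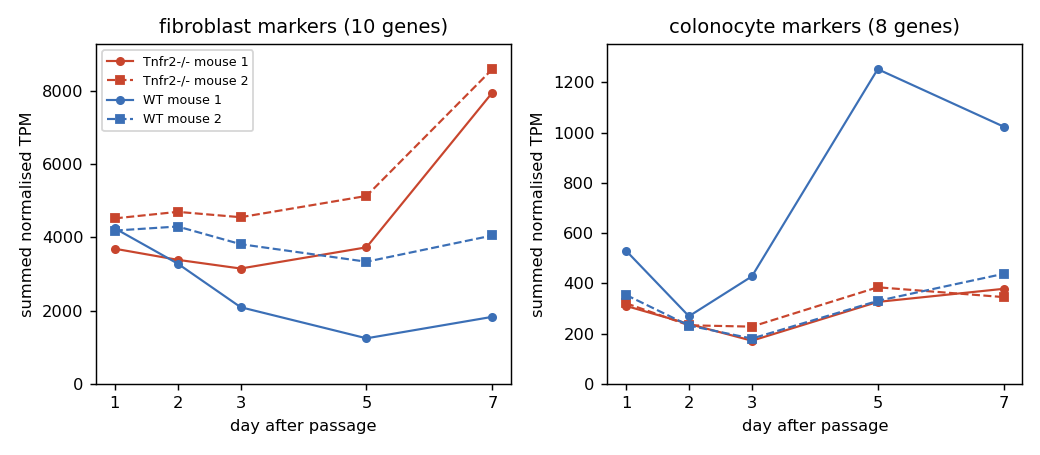
Summed abundance (normalised TPM, y axis) of 10 fibroblast markers (left) and 8 colonocyte markers (right) by day after passage (x axis), 1 line per mouse. On day 7 the fibroblast sums of the knockout mice were 7954 and 8594 and those of the WT mice 1829 and 4051, and the colonocyte sum of WT mouse 1 reached 1253 on day 5.

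Ly6e, an interferon-inducible protein that also limits entry of some viruses, was higher in Tnfr2-/- by 0.34 on the log2 scale over all days (SE 0.095, 95% CI 0.14 to 0.54, adjusted p = 0.0352). WT mouse 1 gave 1006, 1231, 1729, 2009 and 2779 over the 5 days, and WT mouse 2 gave 1607, 1838, 2121, 2880 and 2292. The knockout mice gave 1858, 1987, 2311, 3261 and 3066 and then 1640, 1790, 2119, 3134 and 3226. Both knockout libraries exceeded both WT libraries on 3 days, as 9.83% of genes did on at least 3, and WT mouse 2 lay within the knockout range on days 2 and 3. Without WT mouse 1 the difference was 0.17 (adjusted p = 0.2136), without either knockout mouse adjusted p was 0.2976 and 0.2195, and without day 7 it was 0.1041. With the libraries of a mouse treated as correlated it was 0.06896, and with libraries rescaled to the same total it was 0.08631 at a log2 difference of 0.27. Leaving out 1 library also ended the call, with adjusted p from 0.05179 to 0.07083, for Tnfr2-/- mouse 1 on each day, Tnfr2-/- mouse 2 on days 5 and 7, WT mouse 1 on days 1, 2, 3 and 5 and WT mouse 2 on day 7.

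Ly6d, a marker of early B lineage cells and of keratinocytes, was not called between genotypes, with a log2 difference of 0.42 (95% CI 0.13 to 0.71, adjusted p = 0.07309). WT mouse 1 gave 107, 150, 181, 273 and 563 and WT mouse 2 gave 76.3, 132, 194, 222 and 226. The knockout mice gave 89.1, 181, 207, 424 and 435 and then 97.3, 213, 310, 443 and 467. The knockouts exceeded both WT libraries on 3 days (beside the same 9.83% of genes), and the highest single value was that of WT mouse 1 on day 7. Without that library the difference was 0.52 over all days and 0.90 on the late days. Without all days of WT mouse 1 it was 0.64 and 0.98, and without WT mouse 1 on day 1 it was 0.48 over all days. These fits drop some or all of the spread between the WT mice, so no p is given for them.

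Lypd8 differed more between the WT mice than between the genotypes. WT mouse 1 gave 354, 72.2, 427, 2447 and 6760 normalised TPM, and WT mouse 2 gave 113, 11.1, 33.1, 842 and 1224. The knockout mice gave 77.5, 34.8, 86.9, 776 and 1386 and then 113, 33.5, 90.4, 802 and 1313. The WT mice differed by 2.91- to 12.9-fold on the same day and the knockout mice by 1.03- to 1.46-fold, and on the late days the knockouts lay close to WT mouse 2. The log2 difference over all days was -0.65 (95% CI -1.58 to 0.28, adjusted p = 0.4131). It was 0.54 without WT mouse 1 and -1.84 without WT mouse 2, so its direction depended on which WT mouse was kept. The spread between the WT mice does not enter either fit, so no p is given for them. The late colonocyte sums given above were highest in WT mouse 1, and their r with Lypd8 over the 20 libraries was 0.79. Their part in the Lypd8 difference was not tested.

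Plaur was not called between genotypes, with a log2 difference of 0.09 (95% CI -0.20 to 0.38, adjusted p = 0.7534). Late it differed by 0.20 (adjusted p = 0.6338), and by 0.53 without WT mouse 2, in a fit that lacks the spread between the WT mice. Lypd3 and Cd59a differed by 0.06 and 0.21 with intervals from -0.52 to 0.64 and from -0.33 to 0.76, and at levels near 0 the pseudocount of 1 compresses any change. No direction is read for these members.

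**Figure D3:**
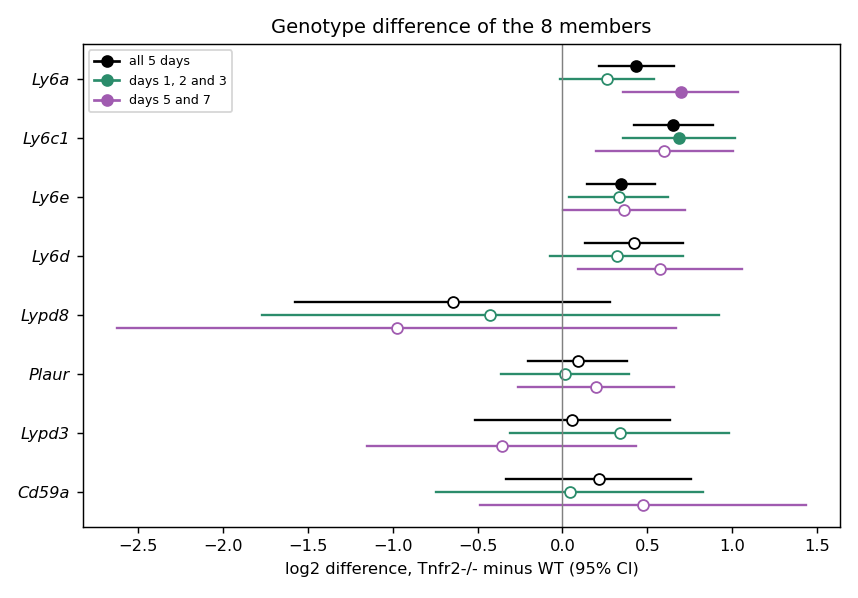
Log2 difference, Tnfr2-/- minus WT (x axis), with its 95% confidence interval for the 8 members (y axis) over all 5 days (black), days 1 to 3 (green) and days 5 and 7 (purple). Filled points have an adjusted p under 0.05. Filled points are Ly6a (all days 0.44, late 0.70), Ly6c1 (all days 0.65, early 0.69) and Ly6e (0.34), and the intervals of Lypd8 are the widest.

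On the early days, 1, 2 and 3, Ly6c1 alone was called, at a log2 difference of 0.69 (SE 0.15, adjusted p = 0.04914), while 1.2% of genes were called. Mean Ly6c1 was 1346 ± 663 normalised TPM in Tnfr2-/- and 860 ± 443 in WT libraries (SD, n = 6 from 2 mice each, a spread that includes the change over days). The adjusted p lay next to the threshold, and it was 0.3359 with mouse means and 0.09799 when the libraries of a mouse were treated as correlated (a block). The call was lost without any 1 of the 10 knockout libraries. It was also lost without WT mouse 1 on days 1, 2 or 3, without WT mouse 2 on days 2 or 3, and without WT mouse 1 altogether. Leaving out all days of Tnfr2-/- mouse 1 or mouse 2 ended it as well, and the call was lost in 27 of 36 alternatives in all. Late, Ly6c1 differed by 0.60 (adjusted p = 0.07885). It was called there without WT mouse 1 on day 1, WT mouse 2 on day 1 or 5, or all days of WT mouse 2. Those fits hold less of the spread between the WT mice. On single days limma called no member, 2 libraries against 2, when 0.0739% of genes were called on day 1, 0.096% on day 2, 0.155% on day 3, 1.65% on day 5 and 0.82% on day 7. At an unadjusted p under 0.05, 1, 1, 1, 3 and 2 of the 8 passed on days 1, 2, 3, 5 and 7, beside 6.05%, 7.43%, 8.69%, 16.0% and 13.9% of genes.

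Whether the genotype difference grew from early to late days was tested directly as an interaction, which called none of the 8 members in limma and 0.148% of genes. At an unadjusted p under 0.05 no member passed in that fit, beside 11.7% of genes. Ly6a came nearest, with an interaction of 0.44 (SE 0.20, 95% CI -0.00053 to 0.87, adjusted p = 0.4273), and for Ly6c1 it was -0.09 (adjusted p = 0.9307). With each mouse compared with itself, the interaction of Ly6a had an unadjusted p of 0.04022 and an adjusted p of 0.2881 in limma.

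As the cultures matured, 4 members changed in the same direction in both genotypes. Lypd8, Ly6d and Ly6e rose from early to late days and Plaur fell, in each of the 4 mice. These were 4 of 8 members beside 20.1% of genes in WT and 4 of 8 beside 20.3% in Tnfr2-/- (11.6% and 10.4% higher, 8.52% and 9.93% lower). Lypd8 rose by 4.50 on the log2 scale in WT (SE 0.70, adjusted p = 0.0009551) and by 3.95 in Tnfr2-/- (adjusted p = 0.001841). Within each mouse it was lowest on day 2 and highest on day 7, a range of 39.2- to 110.5-fold. Ly6d rose by 1.15 in WT (SE 0.20, adjusted p = 0.002174) and by 1.40 in Tnfr2-/- (adjusted p = 0.0005501), and each mouse had its highest Ly6d on day 7 and its lowest on day 1. Ly6e rose by 0.68 in WT (SE 0.15, adjusted p = 0.007747) and by 0.71 in Tnfr2-/- (adjusted p = 0.005679). Leaving out either knockout mouse, so that each knockout group was 1 library, ended all 4 knockout calls and the WT call of Ly6e. Over the same interval colonocyte markers were called higher in 4 of 8 in WT and 1 of 8 in Tnfr2-/-, and none lower. Epithelial markers had 4 of 8 higher in WT, and 2 higher and 2 lower in Tnfr2-/-. Fibroblast markers had 1 of 10 higher and 1 lower in WT, and 3 higher in Tnfr2-/-. The part of such cells in the member changes was not tested.

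Plaur, in contrast, was highest on day 1 or 2 in each mouse. WT mouse 1 gave 153, 116, 47.0, 40.7 and 55.5 normalised TPM and WT mouse 2 gave 136, 167, 86.0, 76.0 and 75.0. The knockout mice gave 154, 118, 85.7, 70.8 and 60.3 and then 126, 102, 89.3, 71.8 and 73.5. Plaur fell by 0.85 on the log2 scale in WT (adjusted p = 0.009179) and fell by 0.67 in Tnfr2-/- (adjusted p = 0.02825). The WT call was lost without WT mouse 1 on day 5 (adjusted p = 0.05008) or day 7 (adjusted p = 0.05136), and without either knockout mouse (adjusted p = 0.07352 and 0.0731), which share in the estimate of the spread. The knockout call was lost without mouse 1 on days 1, 2, 3, 5 or 7 or mouse 2 on days 3, 5 or 7 (adjusted p from 0.05135 to 0.1051), and with no filter on low values (adjusted p = 0.05373).

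Ly6a and Ly6c1 were not called between early and late days. Ly6a differed by -0.11 in WT (95% CI -0.42 to 0.20, adjusted p = 0.6313) and by 0.33 in Tnfr2-/- (95% CI 0.02 to 0.64, adjusted p = 0.1309). Without WT mouse 2 on day 5 the WT value was -0.33. Leaving out WT libraries left the knockout value at 0.33. Ly6c1 differed by 0.33 in WT (adjusted p = 0.1964) and by 0.25 in Tnfr2-/- (adjusted p = 0.3557), and its highest value fell on day 3 or day 5 in each mouse.

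**Figure D4:**
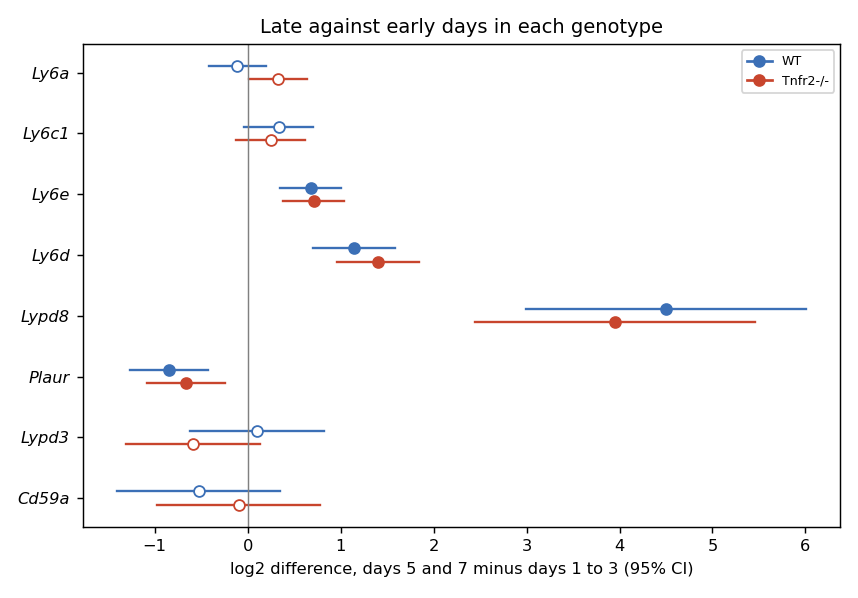
Log2 difference of days 5 and 7 minus days 1 to 3 (x axis) with its 95% confidence interval for the 8 members (y axis) in WT (blue) and Tnfr2-/- (red). Filled points have an adjusted p under 0.05. Lypd8 (4.50 and 3.95), Ly6d (1.15 and 1.40) and Ly6e (0.68 and 0.71) lie to the right of 0, Plaur (-0.85 and -0.67) lies to the left, and the intervals of the genotypes overlap for each member.

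Steps between neighbouring days, averaged over genotypes, placed these changes in time. Ly6c1 rose from day 1 to day 2 by 1.303 on the log2 scale (SE 0.19, adjusted p = 0.006137, beside 0.761% of genes), in each of the 4 mice. Summed squamous epithelium markers (10 genes, mostly Krt14) were also higher on day 2 than on day 1 in each mouse, at 1264 to 2339 against 795 to 1177, and they lay between 412 and 934 on day 7. Of the 6 tested, limma called 0 at this step, and 5 had an unadjusted p under 0.05, beside 12.4% of genes, with a median of 1.35 beside -0.01 for all genes. Sprr3 was at 0 in all 20 libraries and Trp63 in 18. Between genotypes 1 of the 6 was called higher over all days, beside 4.51% of genes, and the sums were 727 to 2737 in Tnfr2-/- and 412 to 3009 in WT. The part of such cells in the Ly6c1 values was not tested. Lypd8 rose from day 3 to day 5 by 3.36 (SE 0.77, adjusted p = 0.04279, beside 2.18% of genes). No member was called from day 2 to day 3, where limma called 0 genes in all (0.0%) and 3 of 8 members passed an unadjusted p under 0.05, beside 10.7% of genes. None was called from day 5 to day 7 either, where 0.0222% of genes were called and 1 member passed unadjusted, beside 11.4% of genes. When each mouse was compared with itself, by fitting the mouse as a fixed term (a replicate block), 6 steps of members were called rather than 2, which rests on reading the number as the animal on all 5 days. Lypd8 then fell from day 1 to day 2 (log2 change -2.10, adjusted p = 0.003048) and rose from day 2 to day 3 (1.69, adjusted p = 0.02618) and from day 3 to day 5 (3.36, adjusted p = 0.0002246). Ly6d rose from day 1 to day 2 (0.85, adjusted p = 0.03257), and Ly6c1 rose at that step (adjusted p = 0.004755) and fell from day 5 to day 7 (-0.93, adjusted p = 0.04416). In that fit 2.17%, 0.31%, 5.13% and 0.798% of genes were called at the successive steps. Ly6a was called at no step in either fit.

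Transcripts of the members were tested in the same way, 37 of 42 having a mean of at least 1 among 38671 transcripts tested. Between genotypes over all days, 1 of the 37 was called, Ly6a-205 (ENSMUST00000189068), beside 0.714% of all transcripts. Ly6a-205 held 58.7% of the Ly6a abundance, Ly6a-203 22.4% and Ly6a-204 12.5%. In WT mouse 1 Ly6a-205 measured 1101, 1294, 1245, 1213 and 1596 normalised TPM on the 5 days and in WT mouse 2 it measured 739, 1658, 2050, 1790 and 1208. In the knockouts it measured 1674, 2088, 2191, 2532 and 2142 and then 1507, 2102, 2310, 2488 and 1825. Both knockout libraries exceeded both WT libraries on each day, as held for 0.378% of transcripts, with a log2 difference of 0.62 (SE 0.11, adjusted p = 0.009833). It was lost without Tnfr2-/- mouse 1 (adjusted p = 0.2566), Tnfr2-/- mouse 2 (0.265) or WT mouse 1 (0.07069). Ly6a-203 differed by 0.46 (adjusted p = 0.5566) and Ly6a-204 by -0.25 (adjusted p = 0.8643).

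The share of Ly6a-205 in Ly6a was 55.3 ± 11.5% in WT and 61.5 ± 4.53% in Tnfr2-/- libraries (SD, n = 10 from 2 mice each). Its lowest values were both WT libraries of day 1, at 46.0% and 29.4%, where the knockout shares were 61.6% and 61.9%. The shares were not tested. In the annotation, the first exon of Ly6a-205 (chr15:74997848-74997907) ends at the same splice position as that of Ly6a-202, whereas the first exons of Ly6a-203 (chr15:74997879-74997987) and Ly6a-204 (chr15:74997879-74998031) share another. Only 3.42% of the 31-base words of Ly6a-205 are found in no other Ly6a transcript, so its separation from the other isoforms rests on few bases and on the authors' estimation. From early to late days, Ly6e-215, Ly6d-201, Lypd8-201 and Lypd8-202 were called higher in WT (4 of 37, beside 3.41% of transcripts) and in Tnfr2-/- (4 of 37, beside 3.33%), and Ly6e-215 held 66.6% of Ly6e and Lypd8-201 98.2% of Lypd8.

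**Figure D5:**
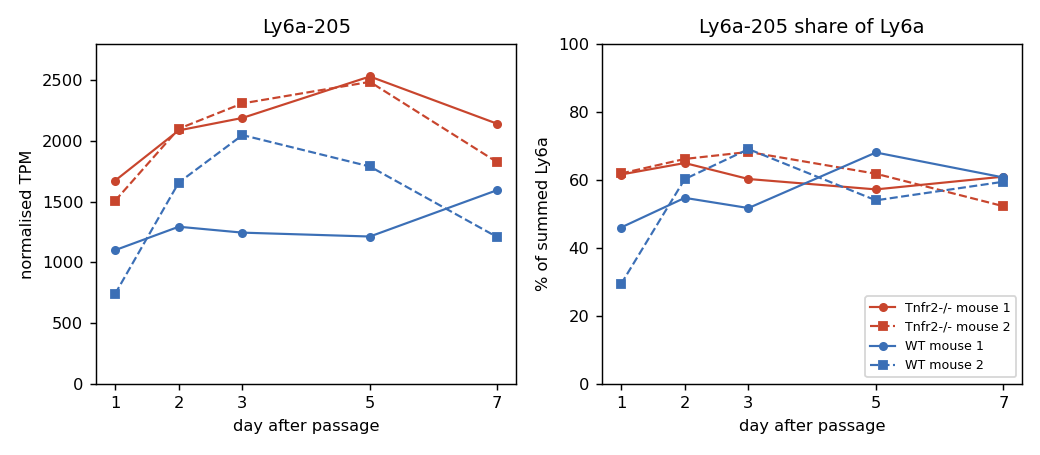
Abundance of the transcript Ly6a-205 (left, normalised TPM) and its share of summed Ly6a (right, %) by day after passage (x axis), 1 line per mouse. The knockout mice lie above the WT mice on each day in abundance, and on day 1 the WT shares are 46.0% and 29.4% against 61.6% and 61.9%.

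Among the 39 other family genes listed for comparison, 33 were in the table and 14 had a mean of at least 1. Over all days 1 of the 14 was called higher, Ly6k, at 1.00 on the log2 scale (adjusted p = 0.04005, lost in 19 of 36 alternatives), and none lower, beside 4.51% and 3.09% of genes, with a median of -0.20. On the late days Psca, the prostate stem cell antigen, was higher by 1.31 (adjusted p = 0.006971, lost in 3 of 35 alternatives with adjusted p from 0.1441 to 0.2786), with 14.3 ± 2.68 normalised TPM in the knockouts and 5.23 ± 1.38 in the WT libraries (SD, n = 4), and so was Ly6k (1.39, adjusted p = 0.0314, lost in 12 of 34), which made 2 of 14 beside 3.8% of genes. Ly6g, the granulocyte antigen and the most abundant of the 14 with a mean of 448, differed by 0.64 over all days (adjusted p = 0.05348). Its 31-base words overlap those of Ly6a and Ly6c1 little, at 11 and 19 words. From early to late days, Cd59b, the close relative of Cd59a, fell by 1.23 in WT (adjusted p = 0.009091) and fell by 2.49 in Tnfr2-/- (adjusted p = 0.0001288), and Psca fell by 1.93 and by 0.81 (adjusted p = 0.0001849 and 0.01876). Ly6g6e rose by 1.85 in WT (adjusted p = 0.0004154) and by 1.49 in Tnfr2-/- (adjusted p = 0.001253). In WT, Ly6g and Lypd6b also fell (-0.96 and -1.06, adjusted p = 0.0413 and 0.006228), and the Ly6g call was lost in 19 of 35 alternatives (adjusted p from 0.05091 to 0.1708). In Tnfr2-/- Ly6k and Ly6g6d rose (1.41 and 1.14, adjusted p = 0.007647 and 0.01479), calls lost in 3 of 34 and 4 of 35 alternatives. The Psca call in Tnfr2-/- was lost in 5 of 35, and those of Cd59b and Ly6g6e in 2 of 35 each. From early to late days this made 1 higher and 4 lower of 14 in WT, beside 11.6% and 8.52% of genes, and 3 higher and 2 lower in Tnfr2-/-, beside 10.4% and 9.93%. The limma interaction of genotype and period called none of the 14, and 2 had an unadjusted p under 0.05, beside 11.7% of genes. Ly6g6c, Lynx1, Spaca4, Ly6c2, Gml, Gml2 and Cd177, with means from 1.99 to 9.28, were called in none of the 4 comparisons.

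Partners of Plaur in the urokinase system were followed as a list of proteases, inhibitors and receptors. Of 21 listed genes 18 were tested, and 7 were called higher and 1 lower in Tnfr2-/- over all days, beside 4.51% and 3.09% of genes. On the late days 8 were higher and none lower, beside 3.8% and 2.64% of genes, with medians of 0.74 for the list and -0.05 for all genes. Serpine2, a protease inhibitor, was higher by 1.00 over all days and 1.58 late (adjusted p = 0.01018 and 0.00174). Lrp1, the endocytic receptor that clears uPAR complexes, was higher by 1.06 and 1.59 (adjusted p = 0.005483 and 0.005609), and Itgb1, an integrin subunit, by 0.52 and 0.85 (adjusted p = 0.01672 and 0.01379). Plau, which encodes urokinase, was called on the late days, with means of 148 ± 21.8 and 72.0 ± 29.6 normalised TPM (SD, n = 4) (1.14, adjusted p = 0.04088, lost in 19 of 35 alternatives), and had an adjusted p of 0.1423 over all days. Its interaction of genotype and period was 1.02 (adjusted p = 0.3238), which was not called. With mouse means 0 of the 18 were called higher in both comparisons. Without Tnfr2-/- mouse 1 the counts were 2 over all days and 0 late, without Tnfr2-/- mouse 2 they were 0 and 0, and without WT mouse 1 they were 0 and 10. The fibroblast marker sums given above moved in the same direction as this list, and their part in it was not tested. From early to late days, while Plaur fell, the list had 3 genes higher and 1 lower in WT and 8 higher and 1 lower in Tnfr2-/-, beside 11.6% and 8.52% of genes in WT and 10.4% and 9.93% in Tnfr2-/-. With 1 library or mouse left out, 0 to 10 were called higher in Tnfr2-/-, and 0 without either knockout mouse, while in WT 1 to 4 were higher and 0 to 4 lower. Among the called genes with the lowest p were Plgrkt, a plasminogen receptor, which rose by 1.195 and 0.91 (adjusted p = 0.001952 and 0.008349), Itgav, an integrin subunit, which rose by 0.67 and 1.02 (adjusted p = 0.02363 and 0.002477), S100a10 in WT (-0.51, adjusted p = 0.01107) and Itgb3 in Tnfr2-/- (1.42, adjusted p = 0.007139).

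Genes of the GPI anchor pathway, on which most members depend for their place on the membrane, were also counted. Of 28 tested, 1 was called lower over all days, beside 3.09% of genes, and 2 on the late days, beside 2.64%, and none higher. The late median was -0.15 for the list and -0.05 for all genes. Pigh, a subunit of the enzyme that starts anchor synthesis, differed by -0.55 over all days (adjusted p = 0.0405, lost in 21 of 37 alternatives) and by -1.003 late (adjusted p = 0.006969), and Mppe1, which trims the anchor, by -1.11 late (adjusted p = 0.02608, lost in 10 of 34 alternatives). From early to late days Pigf fell by 0.80 in WT and fell by 0.84 in Tnfr2-/- (adjusted p = 0.0009962 and 0.0006315). Gpld1, a phospholipase that cuts GPI anchors, rose in WT (1.70, adjusted p = 0.01031), and Pigh, Dpm2 and Mppe1 fell in Tnfr2-/- (-0.74, -0.43 and -0.77, adjusted p = 0.007414, 0.01857 and 0.03874). That made 1 higher and 1 lower of 28 in WT and 4 lower in Tnfr2-/-, beside 11.6% higher and 8.52% lower of all genes in WT and 9.93% lower in Tnfr2-/-. In Tnfr2-/- the Mppe1 call was lost in 13 of 34 alternatives, that of Dpm2 in 7 of 35 and that of Pigh in 2 of 35.

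Of 11 complement genes listed beside Cd59a, 6 were tested. C3, the central complement component, was higher in Tnfr2-/- by 0.67 over all days (adjusted p = 0.04588) and by 1.13 late (adjusted p = 0.04631), and the other 5 were not called, so that 1 of 6 was higher beside 4.51% and 3.8% of genes. Those calls were lost in 23 of 37 and 22 of 35 alternatives. From early to late days Cd55, a GPI-anchored inhibitor of complement activation, rose by 0.79 in Tnfr2-/- (adjusted p = 0.004892) and so did C3 (0.99, adjusted p = 0.02596), which made 2 of 6 beside 10.4% of genes. The Cd55 call was lost in 2 of 35 alternatives and that of C3 in 9 of 35. In WT none of the 6 was called by limma, beside 11.6% of genes called higher, and 2 had an unadjusted p under 0.05, beside 33.3% of genes.

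The interferon response list is relevant to Ly6e, which is interferon-inducible, and to Ly6a, which the study counts among Yap1 and interferon targets. The list had no gene called between genotypes. Of its 14 tested genes limma called 0 over all days and 0 late, beside 7.6% and 6.45% of genes, and 2 and 1 had an unadjusted p under 0.05, beside 22.3% and 22.9% of genes. From early to late days 9 of the 14 were called higher and none lower in each genotype, beside 11.6% of genes called higher in WT and 10.4% in Tnfr2-/-, with medians of 1.01 in WT and 0.96 in Tnfr2-/- beside 0.02 for all genes. Without either knockout mouse, 0 of the 14 were called in Tnfr2-/- and 6 in WT, and with 1 library or mouse left out the counts ranged from 0 to 13 and from 6 to 10. Ifit1 rose by 2.15 and 2.02 (adjusted p = 0.001182 and 0.001507), Irf7 by 2.12 and 1.80 (0.001428 and 0.00335) and Irf9 by 0.97 and 0.81 (0.002012 and 0.005269), and in Tnfr2-/- these 3 calls were each lost in 2 of 35 alternatives (adjusted p from 0.1436 to 0.3197). Ly6e rose over the same interval by 0.68 and 0.71, whereas Ly6a differed by -0.11 in WT and 0.33 in Tnfr2-/-, neither of them called.

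Genes whose log2 profile over the 20 libraries lay nearest to a member were listed by Pearson r, as a description without a test. Nearest to Ly6a were Car5b (0.88), Prss22 (0.87), Gm15280 (0.86) and Las1l (0.85). For Ly6c1 they were Gmpr (0.93), Cers3 (0.93) and Chd9 (0.90), for Ly6d Slc39a4 (0.94), Mxi1 (0.93) and Heph (0.93), and for Ly6e Hspa2 (0.95), N4bp2l1 (0.94) and Lgals3bp (0.94). Lypd8 lay nearest to Muc13, a membrane mucin (0.97), B3galt5 (0.95) and Mgat3 (0.95), and Plaur to Gnl2 (0.91), Psmd12 (0.91) and Arl6ip5 (0.91). For Lypd3 and Cd59a the nearest genes, Gdap2 and B230219D22Rik, reached only 0.73 and 0.80 at levels near 0. Among the members, Ly6d and Ly6e were most alike (0.80), Ly6a and Ly6c1 had an r of 0.67, and Plaur ran opposite to Lypd8 and Ly6d (both -0.74). The libraries share mice and days, so these values mix genotype, day and mouse.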

How the data were processed

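Colonoid mRNA was sequenced as stranded single-end libraries from 2 WT and 2 Tnfr2-/- mice on 5 days. The submitters' processing notes name CASAVA, kallisto, sleuth and the mm10 build, with no versions. Each deposited value is a transcript's signal: the authors' TPM from kallisto after sleuth's scaling of each library. Shared reads are thereby divided between similar transcripts by an estimate. Depth per library is not given, so no counting interval is printed. Columns with the authors' own test of genotype (p-values, q-values and related statistics) were left aside.

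The table held 113974 lines, 781 of them repeats, which were dropped. There were 199 transcripts without a symbol, at most 0.0989% of a library, which were left out. Values were summed per gene symbol and analysed as log2(value + 1) for the 13539 genes with a mean of at least 1, and likewise for 38671 transcripts. Because of the pseudocount, folds of low genes are understated. Linear models used limma (version 3.58.1, R 4.3.3), with the trend option and Benjamini-Hochberg adjustment over all genes or transcripts tested, and an adjusted p under 0.05 was called. For all days together the model held day as a factor and genotype, and all other comparisons from 10 group means, with days 1, 2 and 3 as early and days 5 and 7 as late. The fits were tested on simulated data. No pair of libraries held identical values.

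The replicate number was read as the mouse within a genotype, from the labels and a design text that calls replicates mice. That the same mouse was sampled on all days is not stated outright, and results by mouse or with a mouse term rest on it. Deviations from the group means correlated between days of a mouse with a median of 0.203 in WT (10 pairs, 0.1 to 0.307) and 0.039 in Tnfr2-/- (-0.051 to 0.08), where no pair was over 0.1. Across genotypes the number is only a name (median 0.037 over 5 pairs). P-values of the library fits treat the libraries of a mouse as independent.

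Words of 31 bases, exons and coding sequences came from the GENCODE M21 transcripts of GRCm38, handled with Python 3.11.15 and Biopython 1.88. The text gives all 8 members, the other family genes with a mean of at least 1, Plau, at most 4 called genes of lowest p per list and comparison, and the 3 genes most like each member (5 for Ly6a), apart from a few genes that are not reported here. The members and lists were chosen with earlier results of these data known, and the fetal intestine list that the study took from earlier work holds Ly6a, Ly6c1, Ly6d and Plaur. Alternatives were other pseudocounts, filters and scalings, fits without a trend, with a mouse block or mouse means, with day as a linear term, and without each library or mouse.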

Additional observations from a re-analysis of the deposited data

Results flagged for a closer look

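From early to late days Ly6a moved down in both WT mice and up in both knockout mice. How many of all genes show such a pattern was not counted. On the log2 scale WT mouse 1 moved by -0.14 and WT mouse 2 by -0.08, whereas the knockout mice moved by 0.32 and 0.34, a difference between genotypes of 0.44 (limma interaction, adjusted p = 0.4273), which did not pass the test. Over 13 other settings its adjusted p ranged from 0.2881 to 0.5994, and the WT values include day 5, where the mice gave 1783 and 3316. A check of each member in each genotype and period compared the gap beside the outermost library with the range of its group. It flagged no library in 32 groups. The groups pool days and hold 4 or 6 libraries, so the check could flag only extreme values. Late WT Ly6d, at 222, 226, 273 and 563, was not flagged.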

How the results depend on the processing

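Of the counts of called members or transcripts, 94 stayed within 1.5 times under other settings and 16 did not, and 191 did so with libraries left out and 73 did not. Scaling turned the sign of no called member, but with libraries scaled to the same total the early difference of Plaur went from 0.02 to -0.05 and that of Cd59a from 0.04 to just below 0, neither of them called. The early count of 1 became 0 with a pseudocount of 0.1 or 5, with no filter on low values, with libraries scaled to the same total or by the median of ratios, without the mean-variance trend, with the mouse as a correlated block, with mouse means and with sums per Ensembl gene. Mouse means also took the count over all days from 3 to 0 and the late count from 1 to 0. The count over all days was 1 with day as a linear term and 1 without day 7 of both genotypes, the latter chosen after seeing the data. The count of steps between days was 1 rather than 2 with no filter or no trend.

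With the replicate block of mouse as a fixed term, the steps called rose from 2 to 6. Treating the replicate number as a block across genotypes, where it is only a number, left 3 members over all days, 1 early, 1 late and 4 in each genotype from early to late, and apart from the early count above the blocks changed no other count by over 1.5 times.

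When 1 library or all libraries of 1 mouse were left out, the count of called members ranged from 0 to 4 over all days, 0 to 4 early, 0 to 5 late, 0 to 0 for the interaction, 2 to 5 from early to late in WT, 0 to 5 in Tnfr2-/-, 0 to 10 on single days and 0 to 7 for steps. Called transcripts ranged from 0 to 4 over all days, 1 to 6 in WT and 0 to 6 in Tnfr2-/-. The early Lypd8 difference of -0.43 became 0.89 without WT mouse 1 and -1.74 without WT mouse 2. Leaving out a mouse leaves 1 library per group, which is assumed to vary like the others. The causes of these changes were not tested. Depth is unknown, so no limit on low values such as Lypd3 and Cd59a can be given.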
